A study of Mus musculus with 6 samples.

Results

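The unfolded protein response and the endoplasmic reticulum (ER) chaperone system were examined in myofibroblasts of the pressure-overloaded mouse heart, with and without deletion of *Hsp47* (gene symbol *Serpinh1*), itself an ER chaperone that binds procollagen. The 44 genes described here were chosen by symbol, as ER stress sensors, their targets, ER chaperones and genes of ER-associated degradation. All 44 were among the 28987 genes of the deposited table, and 43 of them were among the 15109 genes that were tested. They were divided by function into 5 groups: 13 ER lumenal chaperones and co-chaperones, 6 disulfide isomerases and oxidases, 7 sensors and transcription factors, 6 targets of the PERK-ATF4 branch, and 12 genes of ER-associated degradation.

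The ER folds secreted and membrane proteins with the help of chaperones such as BiP (encoded by *Hspa5*), of the lectin chaperones calnexin and calreticulin, and of enzymes that form disulfide bonds. When unfolded proteins accumulate, 3 sensors in the ER membrane respond: IRE1α (*Ern1*) splices the *Xbp1* mRNA, ATF6 is cleaved to release a transcription factor, and PERK (*Eif2ak3*) phosphorylates the translation factor eIF2α, which slows protein synthesis while favoring translation of ATF4. XBP1 and ATF6 are known for raising chaperones and ER-associated degradation, the route by which misfolded proteins are moved to the cytosol and destroyed by the proteasome, whereas ATF4 raises genes of amino acid supply and the transcription factor CHOP (*Ddit3*). The part of the response that PERK shares with other eIF2α kinases is called the integrated stress response. Myofibroblasts secrete large amounts of procollagen, and so depend on this machinery.

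EGFP+ cells had been sorted from cardiac ventricles for RNA-seq 4 weeks after transverse aortic constriction (TAC), surgery that narrows the aorta, in mice that were 8 to 10 weeks old at surgery. Both groups carried MerCreMer, a tamoxifen-activated Cre, knocked into the *Postn* locus together with a Cre-dependent EGFP reporter at the Rosa locus, and both received tamoxifen, for which the sample labels give injections of 100 mg/kg and chow dosed at 40 mg/kg; the study's methods give other doses. The 3 libraries labelled Hsp47-deleted also carried Hsp47flox/flox, which the labels of the 3 control libraries do not list. Because Cre is driven by *Postn*, deletion was directed at activated fibroblasts, and the sort kept cells that had recombined the reporter. The labels do not say whether each library came from a single mouse, so p-values measure the spread between these libraries.

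The values are log2(value + 1) as deposited, in a linear unit that is not named, so a gene was compared between libraries and different genes were not compared in level. The read depth is not known. In bulk RNA, fewer cells of a type and less RNA per cell cannot be told apart. Values of each gene are listed throughout in a fixed order, with the controls first (replicates 2, 3 and 4), followed by the libraries labelled Hsp47-deleted (replicates 1, 2 and 3). Control replicates 3 and 4 were sequenced in one run (the first run here), and control replicate 2 and all 3 Hsp47-deleted libraries in another (the second run). *Serpinh1*, the targeted gene, read 7.60, 6.28 and 6.10 in the controls and 6.87, 6.67 and 6.66 in the libraries labelled Hsp47-deleted. The groups overlapped, with a log2 fold change of 0.07 (SE 0.43, adjusted p = 0.947 by limma), a difference that was -0.87 relative to control replicate 2 and -0.34 after centring. Since the mRNA level of the targeted gene did not separate the groups, libraries are called by their labels. The study reports efficient loss of Hsp47 protein in EGFP+ cells sorted from such hearts, by Western blot. The values here are of mRNA summed over the whole gene and do not test that loss of protein. Genes of the mitochondrial genome held 23.5 to 29.4% of the linear sum in the controls and 4.70 to 7.23% in the other group, and the median log2 fold change over all tested genes was 0.35. Each fold change below is to be read against that shift, and values centred on each library's median are given beside the main counts.

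Summed markers showed a fibroblast population in all 6 libraries (linear sums of 9485 to 12757 in controls and 15358 to 16998 in the libraries labelled Hsp47-deleted, all 10 markers detected). *Postn*, the gene that drives Cre, read 6.12, 5.87 and 5.86 in the controls and 10.22, 10.50 and 10.36 in the other group. The sum of 12 cardiomyocyte markers was 63.8 to 323 and 195 to 327, that of 9 endothelial markers was 99.1 to 278 and 176 to 261, that of 10 leukocyte markers was 39.7 to 101 and 111 to 143 with *Ptprc* at 0 in every library, that of 7 mural markers was 164 to 289 and 115 to 175, and that of the 5 erythroid markers in the table was 18.5 to 679 and 173 to 377. The 10 B and plasma cell markers, of a lineage rich in ER, summed to 1273 in control replicate 2 and to 581 to 1061 in the libraries labelled Hsp47-deleted, but to 4.46 and 1.94 in control replicates 3 and 4. Most of that sum was *Igkc* and *Ighm*. The lower markers *Igj* (16.7, 0.20 and 0.18, then 8.85, 11.3 and 7.79 in the linear unit), *Mzb1* (4.21, 0.087 and 0.44, then 2.46, 2.87 and 2.40) and *Pou2af1* (3.54, 0 and 0, then 3.58, 4.49 and 4.11) differed by run in the same way, while the plasma cell receptor *Tnfrsf17* was at 0 to 0.40 in every library. The part of these cells in the results was not tested.

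Many of these genes are known to be controlled through short promoter elements, so the promoter windows were searched. RefSeq windows (GRCm38.p6, 250 bases before to 50 after the transcription start) were found by symbol for 38 of the 44 genes; *Manf*, *Hyou1*, *Sil1*, *Atf6*, *Creb3l1* and *Derl1* had none. The ER stress response element ERSE (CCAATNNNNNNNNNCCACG, either strand), through which ATF6 and XBP1 act with the CCAAT-binding factor NF-Y, was present in 10 of the 38 genes and in 0.119% of all 32851 windows. These were *Hspa5*, *Hsp90b1*, *Calr*, *Canx*, *Dnajc3*, *Creld2*, *Pdia6*, *Ero1lb*, *Syvn1* and *Derl3*, and *Hsp90b1* held it at 2 sites. ERSE-II (ATTGGNCCACG) was found in *Herpud1* and *Dnajb11* and in 0.0365% of windows, and no gene held both ERSE and ERSE-II. CARE (TGATGNAA), an element bound by ATF4 with C/EBP partners, was found in *Trib3*, *Chac1*, *Asns*, *Nupr1* and *Herpud1* and in 3.97% of windows. The XBP1 element UPRE (TGACGTGG) was in 0 of the 38 windows and in 0.676% of all windows. A match describes letters in the window and not binding.

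Elements of the genes that were higher at an unadjusted p under 0.05 (*Hspa5*, *Canx*, *Calr*, *Syvn1* and *Herpud1*), of *Hsp90b1* (the nearer of its 2 sites, for comparison) and of the ATF4 targets described below are shown with their flanks, 5′ to 3′ on the strand of the gene, with the element in capitals (as its reverse complement where it lies on the other strand) and the coordinates of the whole stretch:
Hspa5, ERSE beginning 65 bases before the start, chr2:34772010-34772058 (+): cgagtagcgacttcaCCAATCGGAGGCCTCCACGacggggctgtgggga
Canx, ERSE 145 bases before, chr11:50325785-50325833 (-): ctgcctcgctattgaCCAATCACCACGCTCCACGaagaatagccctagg
Calr, ERSE 162 bases before, chr8:84847060-84847108 (-): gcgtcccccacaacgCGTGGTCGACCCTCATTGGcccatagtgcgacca
Syvn1, ERSE 44 bases before, chr19:6046517-6046565 (+): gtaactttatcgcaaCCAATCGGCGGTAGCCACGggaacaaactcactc
Hsp90b1, ERSE 107 bases before, chr10:86705518-86705566 (-): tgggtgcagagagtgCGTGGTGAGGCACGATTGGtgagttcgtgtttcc
Herpud1, ERSE-II 52 bases before, chr8:94386362-94386402 (+): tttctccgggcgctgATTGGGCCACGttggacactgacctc
Herpud1, CARE 112 bases before, chr8:94386302-94386339 (+): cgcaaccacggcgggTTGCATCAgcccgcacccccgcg
Chac1, CARE 193 bases before, chr2:119351034-119351071 (+): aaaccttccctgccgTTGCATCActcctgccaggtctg
Asns, CARE 23 bases before, chr6:7693210-7693247 (-): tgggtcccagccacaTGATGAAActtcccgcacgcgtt
Nupr1, CARE 110 bases before, chr7:126625558-126625595 (-): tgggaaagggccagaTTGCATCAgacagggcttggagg

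**Figure D1:**
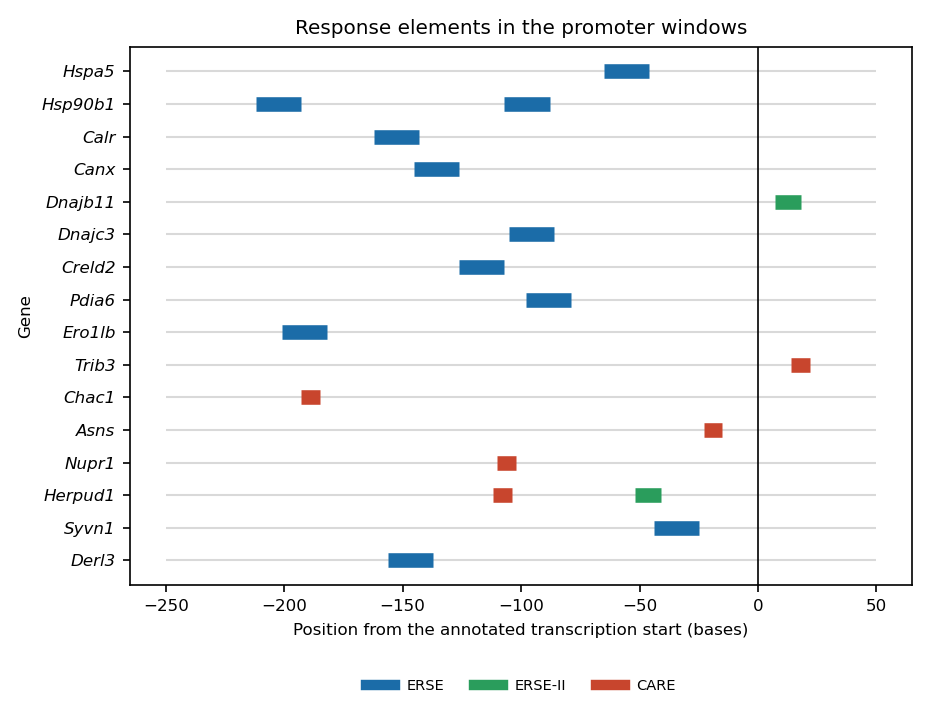
Position of each ERSE (blue), ERSE-II (green) and CARE (red) match in the RefSeq promoter windows of the 16 genes that hold at least 1, in bases from the annotated transcription start (vertical line). Matches of ERSE lie before the start in all 10 genes, and those in *Dnajb11* and *Trib3* lie after it.

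The main question was whether the response differed between the groups. No gene of the 43 tested passed the adjusted threshold in limma with Benjamini-Hochberg (BH) adjustment at 0.05, by which 37 genes (0.245%) were called among all tested. At an unadjusted p under 0.05, 12 of the 43 genes (27.9%) had higher values in the Hsp47-deleted group, beside 14.5% of all tested genes, and 0 were lower, beside 0.755%. The 12 genes were *Canx*, *Syvn1*, *Creb3l2*, *Calr*, *Os9*, *Hspa5*, *Herpud1*, *Hyou1*, *Sil1*, *Ddit3*, *Manf* and *Vimp*. The groups did not overlap for 17 of the 43 genes (39.5%), with every control the lower, beside 18.3% of all tested genes, and for 0 genes with every control the higher, beside 1.5%. The median log2 fold change was 0.57, or 0.21 above that of all tested genes, and 39 of the 43 fold changes were positive, beside 74.5% of all tested genes.

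These counts changed with the scaling and with the sequencing run. With each library centred on its median, the median of the 43 genes was 0.15 beside -0.06 for all tested genes, 2 genes (*Canx* and *Syvn1*) stayed higher at an unadjusted p under 0.05 beside 4.73% of all tested genes, and 5 genes (*Canx*, *Syvn1*, *Calr*, *Creb3l2* and *Herpud1*) had no overlap in that direction beside 6.54%. With sequencing run as a covariate, 4 genes (*Canx*, *Ddit3*, *Syvn1* and *Creb3l2*) were higher at an unadjusted p under 0.05, beside 5.46% of all tested genes. Relative to control replicate 2 alone, the only control of the second run, the mean of the libraries labelled Hsp47-deleted was higher for 34 of the 43 genes, beside 71.8% of all tested genes, and all 3 of those libraries were higher for 24, beside 46.7%.

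Leaving out single libraries also moved the counts. Without Hsp47-deleted replicate 3, 9 genes were higher at an unadjusted p under 0.05 beside 12.1% of all tested genes, the median was 0.47 beside 0.36, and both remaining libraries lay above all controls for 21 genes beside 32.5%. Without control replicate 2, where sequencing run and label coincide and cannot be told apart, 8 genes (18.6%) passed the adjusted threshold in limma, beside 18.3% of all tested genes. They were *Sil1*, *Derl2*, *Syvn1*, *Sel1l*, *Pdia5*, *Calr*, *Canx* and *Os9*. Relative to control replicates 3 and 4 alone, 26 genes were higher in every library of the other group, beside 41.4%.

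**Figure D2:**
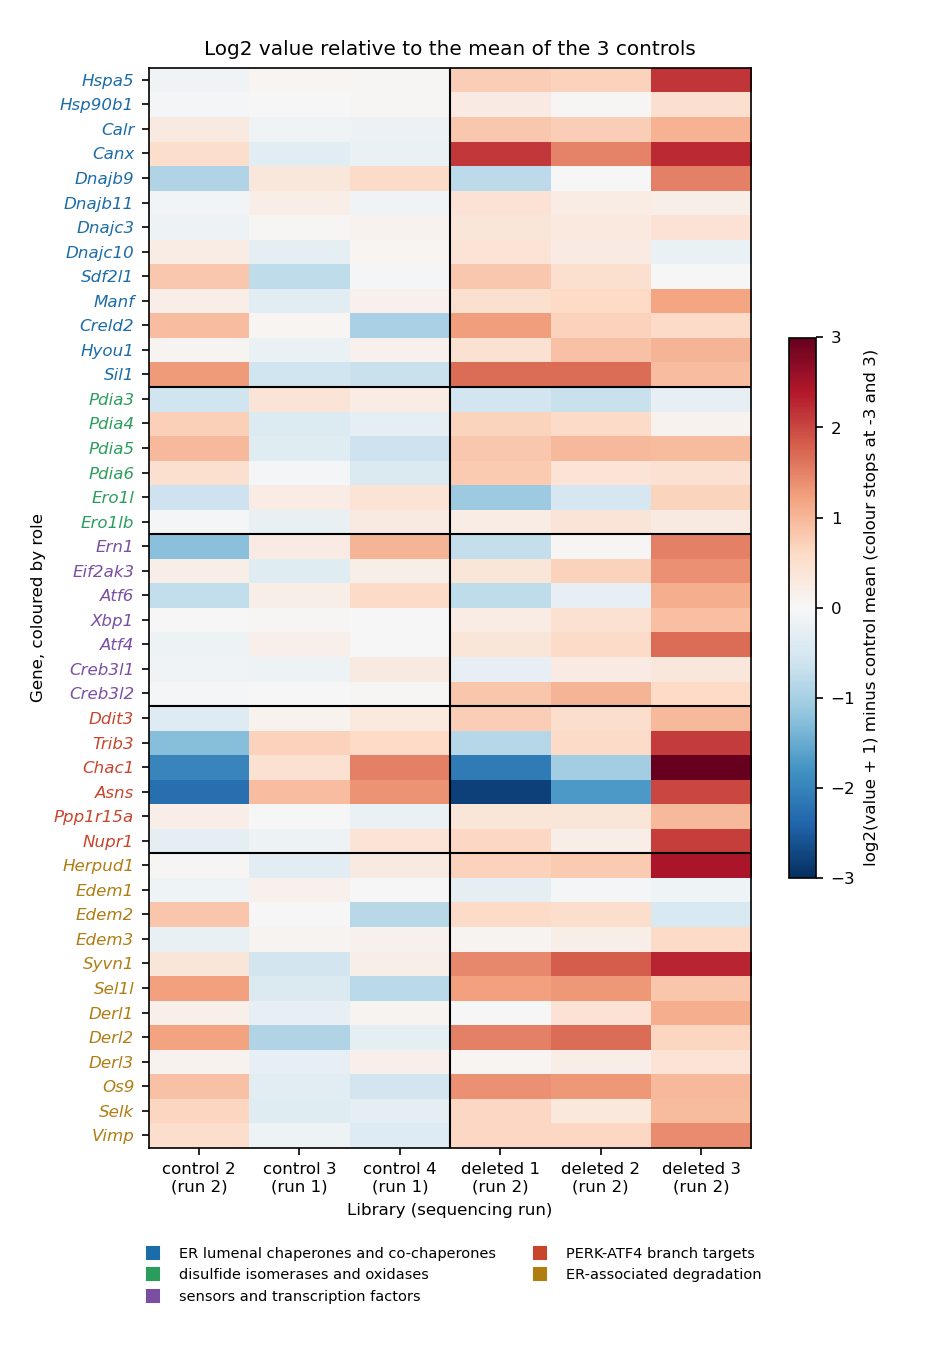
Log2(value + 1) of all 44 genes (rows, coloured by role) in the 6 libraries (columns, with sequencing run), each relative to the mean of the 3 controls, with red higher and blue lower. *Canx* and *Syvn1* are red in all 3 libraries labelled Hsp47-deleted, *Sil1*, *Sel1l* and *Derl2* are red in control replicate 2 as well, and *Chac1* and *Asns* are blue in control replicate 2 and Hsp47-deleted replicates 1 and 2.

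**Figure D3:**
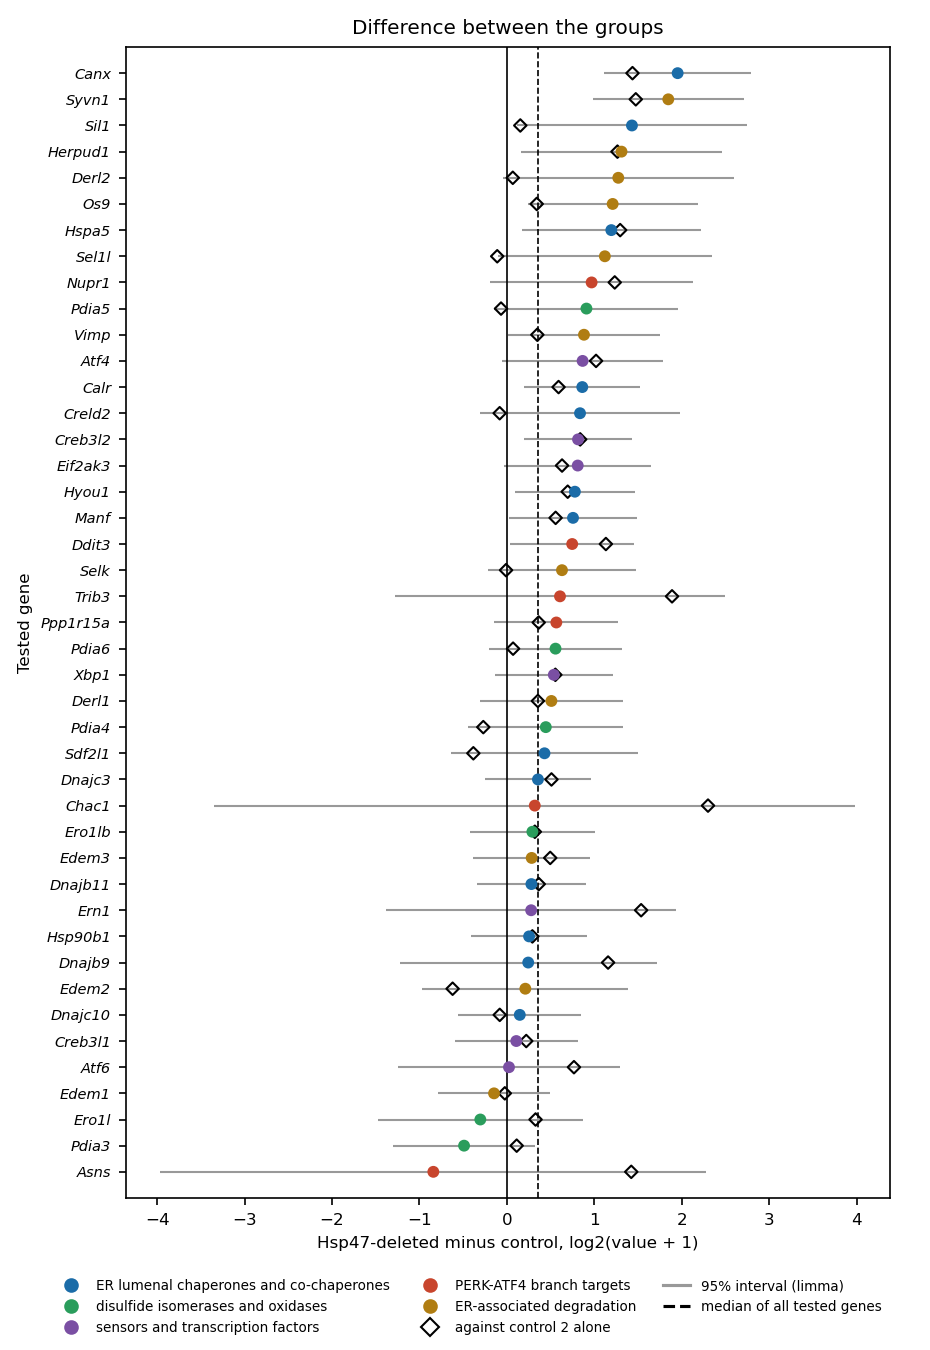
Log2 difference between libraries labelled Hsp47-deleted and controls for the 43 tested genes (filled points, coloured by role, with 95% intervals from limma) and the same difference against control replicate 2 alone (open diamonds). The dashed line is the median of all tested genes, 0.35; the intervals of *Canx* and *Syvn1* lie wholly above it, and the diamonds of *Sil1*, *Derl2*, *Sel1l* and *Pdia5* sit near 0.

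Among the ER lumenal chaperones, 6 of 13 genes (46.2%, beside 14.5% of all tested genes) were higher at an unadjusted p under 0.05 and 7 (53.8%, beside 18.3%) had no overlap between the groups, with a median log2 fold change of 0.76 (0.34 after centring). With sequencing run as a covariate or after centring, 1 of the 13 was higher at that threshold, beside 5.46% and 4.73% of all tested genes. After centring, 2 had no overlap, beside 6.54%. Calnexin, a membrane-bound lectin chaperone that retains glycoproteins until they fold, had the largest log2 fold change of the 43 tested genes in the fit of all 6 libraries with no covariate or block, though not relative to control replicate 2, where *Chac1*, *Trib3*, *Ern1* and *Syvn1* differed more. *Canx* (chr11:50293961-50325673, GRCm38) read 7.66, 6.82 and 6.95 in the controls and 9.28, 8.64 and 9.38 in the libraries labelled Hsp47-deleted. The groups did not overlap, and the highest control was replicate 2. The log2 fold change was 1.95 (SE 0.36, 95% interval 1.11 to 2.79, unadjusted p = 0.000708, adjusted p = 0.114 by limma), and it was 1.44 relative to control replicate 2, 1.54 after centring and 1.81 without Hsp47-deleted replicate 3.

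Calreticulin is the soluble relative of calnexin. *Calr* (chr8:84841850-84846934) read 7.72, 7.35 and 7.27 and then 8.26, 8.18 and 8.49, so that the groups did not overlap and the spread within each was under 0.5. Its log2 fold change was 0.86 (SE 0.29, adjusted p = 0.283 by limma), and it was 0.59 relative to control replicate 2.

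BiP is the Hsp70 chaperone that also holds the 3 sensors inactive. *Hspa5* (chr2:34771970-34777547) read 8.87, 9.04 and 9.01 in the controls and 9.72, 9.66 and 11.13 in the libraries labelled Hsp47-deleted. The controls of both runs lay within 0.2 of each other, whereas Hsp47-deleted replicate 3 stood 1.44 above the mean of the other two. The log2 fold change was 1.20 (SE 0.44, adjusted p = 0.305 by limma), and without that library it was 0.72. GRP94, the Hsp90 of the ER, differed less: *Hsp90b1* read 8.88, 8.93 and 8.95 and then 9.16, 8.95 and 9.41. Its log2 fold change of 0.25 (95% interval -0.41 to 0.92, adjusted p = 0.680 by limma) lay below the median of all tested genes, and centring turned it to -0.16.

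The other chaperones varied in their pattern. *Hyou1* (an Hsp70 relative and exchange factor of BiP; 4.19, 3.91 and 4.23, then 4.56, 4.98 and 5.12) and *Manf* (a secreted ER stress protein; 5.74, 5.22 and 5.67, then 6.03, 6.15 and 6.72) had no overlap between the groups, as did *Dnajc3* (the BiP co-chaperone p58IPK; 5.33, 5.53 and 5.60, then 5.84, 5.77 and 5.91). Their log2 fold changes were 0.78, 0.76 and 0.36. After centring these were 0.36, 0.34 and -0.06, and the groups overlapped for each of these genes. By contrast, *Sil1*, the other exchange factor of BiP, read 3.18, 1.30 and 1.23 in the controls and 3.57, 3.59 and 2.83 in the libraries labelled Hsp47-deleted. Control replicate 2 lay within the range of the other group for *Sil1*, and the log2 fold change of 1.43 became 0.15 relative to that control alone. *Creld2* (4.66, 3.80 and 2.77, then 4.99, 4.44 and 4.31) and *Sdf2l1* (3.11, 1.54 and 2.24, then 3.10, 2.77 and 2.31) were likewise at least 1 higher in control replicate 2 than in the mean of the first-run controls. The remaining co-chaperones *Dnajb11*, *Dnajc10* and *Dnajb9* overlapped between the groups, with log2 fold changes of 0.28, 0.15 and 0.24, and *Dnajb9* (ERdj4, a repressor of IRE1α) spanned 5.39 to 6.88 in the controls and 5.53 to 7.81 in the other group.

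None of the 6 disulfide isomerases and oxidases was higher or lower at an unadjusted p under 0.05, beside 14.5% and 0.755% of all tested genes. In none were the groups apart, beside 18.3% with every control the lower and 1.5% with every control the higher. Their median log2 fold change was 0.37, which centring turned to -0.05. *Pdia5*, which is known to act on ATF6, read 3.02, 1.68 and 1.42 in the controls and 2.86, 3.01 and 2.98 in the libraries labelled Hsp47-deleted. All 4 libraries of the second run were alike for *Pdia5* and the first-run controls were lower, so that the log2 fold change was 0.91 (SE 0.45, adjusted p = 0.371 by limma) over all libraries and -0.07 relative to control replicate 2. *Pdia3* (ERp57, the partner of calnexin and calreticulin) ran the other way. It read 7.55, 8.52 and 8.38 and then 7.58, 7.49 and 7.91, with a log2 fold change of -0.49 (SE 0.35, adjusted p = 0.505 by limma) and of 0.11 relative to control replicate 2. *Pdia6* read 5.59, 5.05 and 4.69 and then 5.90, 5.53 and 5.57, a log2 fold change of 0.56 (SE 0.33, adjusted p = 0.425 by limma) that was 0.07 relative to control replicate 2. *Pdia4* (4.56 to 5.69 in controls and 5.08 to 5.65 in the other group) and the oxidases *Ero1l* (3.63 to 4.67 and 3.18 to 4.93) and *Ero1lb* (1.72 to 2.21 and 2.17 to 2.34) overlapped between the groups.

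Of the 7 sensors and transcription factors, 1 (14.3%, beside 14.5% of all tested genes) was higher at an unadjusted p under 0.05. The groups did not overlap for 4 (57.1%, beside 18.3%), and the median log2 fold change was 0.54 (0.12 after centring). The gene past that threshold was *Creb3l2* (BBF2H7), a membrane-bound factor of the ATF6 type known for driving the secretory machinery of matrix-producing cells. After centring, *Creb3l2* was the only 1 of the 7 without overlap (14.3%, beside 6.54% of all tested genes). *Creb3l2* (chr6:37327255-37442146) read 6.11, 6.13 and 6.16 in the controls and 6.97, 7.15 and 6.73 in the libraries labelled Hsp47-deleted. The controls of both runs lay within 0.1 of each other, and all libraries of the other group lay at least 0.5 higher. Its log2 fold change was 0.81 (SE 0.27, adjusted p = 0.283 by limma) and 0.84 relative to control replicate 2. Its relative *Creb3l1* (OASIS), a regulator of procollagen genes, read 4.85, 4.81 and 5.24 and then 4.71, 5.20 and 5.31, with full overlap.

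Of the 3 sensors, *Eif2ak3*, which encodes PERK, read 3.69, 3.16 and 3.68 and then 3.87, 4.21 and 4.88, without overlap (log2 fold change 0.81, SE 0.36, adjusted p = 0.335 by limma). After centring, its log2 fold change was 0.40 and the groups overlapped. *Ern1*, which encodes IRE1α, read 3.54, 5.04 and 5.82 in the controls and 4.09, 4.83 and 6.31 in the libraries labelled Hsp47-deleted, and *Atf6* read 4.38, 5.30 and 5.69 and then 4.36, 4.87 and 6.22. Both genes were low in control replicate 2 and Hsp47-deleted replicate 1 and highest in Hsp47-deleted replicate 3. Their log2 fold changes were 0.28 (SE 0.71, adjusted p = 0.867 by limma) and 0.02 (SE 0.55, adjusted p = 0.987 by limma), and both turned negative after centring (-0.14 and -0.39) and without Hsp47-deleted replicate 3 (-0.34 and -0.51).

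The downstream factors had no overlap between the groups but small differences. After centring, the groups overlapped for both, with log2 fold changes of 0.12 for *Xbp1* and 0.45 for *Atf4*. *Xbp1* read 6.73, 6.78 and 6.73 and then 6.97, 7.21 and 7.66 (log2 fold change 0.54, SE 0.29, adjusted p = 0.397 by limma), a total that does not separate its spliced and unspliced mRNA. *Atf4* read 7.73, 8.02 and 7.90 and then 8.24, 8.46 and 9.55. Hsp47-deleted replicate 3 was 1.20 above the mean of the other two libraries of its group for *Atf4*, and the log2 fold change of 0.87 (SE 0.40, adjusted p = 0.341 by limma) was 0.47 without it.

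For 5 of the 6 targets of the PERK-ATF4 branch, the range among the libraries labelled Hsp47-deleted was larger than the difference between the groups. All 6 were highest in Hsp47-deleted replicate 3, which was the highest library for 27 of the 43 tested genes and for 23.5% of all tested genes. Relative to the control mean, the 6 genes had medians of -0.83, 0.28 and 0.50 in the controls, and of -0.24, 0.29 and 2.04 in the other group, in the order given above. The median range among the libraries labelled Hsp47-deleted was 2.40 for these genes, beside 0.68 for all 43.

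*Chac1*, which encodes a glutathione-degrading enzyme, is a target of ATF4 and was singled out, with *Asns* and *Trib3*, after its values were seen. It read 2.37, 4.82 and 5.87 in the controls and 2.24, 3.31 and 8.47 in the libraries labelled Hsp47-deleted. The highest and the lowest of the 6 libraries thus carried the same label. *Asns*, which makes asparagine, repeated the order with 2.96, 6.14 and 6.57 and then 2.43, 3.49 and 7.23, and *Trib3*, a pseudokinase that restrains ATF4 and CHOP, read 1.00, 2.97 and 2.87 and then 1.44, 2.85 and 4.38. In all 3 genes control replicate 2 lay at least 1.9 below the mean of the first-run controls, and Hsp47-deleted replicate 3 lay 5.69, 4.27 and 2.24 above the mean of the other two libraries of its group. The log2 fold changes of 0.32 for *Chac1*, -0.84 for *Asns* and 0.61 for *Trib3* had 95% intervals of -3.35 to 3.99, -3.96 to 2.28 and -1.28 to 2.49, and without Hsp47-deleted replicate 3 they were -1.58, -2.26 and -0.14.

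CHOP, the pro-apoptotic factor of the response, behaved otherwise. *Ddit3* (chr10:127290774-127296288) read 5.49, 5.98 and 6.16 in the controls and 6.61, 6.40 and 6.85 in the libraries labelled Hsp47-deleted. The groups did not overlap, the lowest library was control replicate 2, and no library stood far from its group. Its log2 fold change was 0.75 (SE 0.31, adjusted p = 0.317 by limma), 1.13 relative to control replicate 2 and 0.63 without Hsp47-deleted replicate 3. After centring it was 0.33, and the groups overlapped. Exons of *Mars* on the other strand overlap those of *Ddit3*, and the protocol names no strand-marking step. *Ppp1r15a* (GADD34, which reverses the phosphorylation of eIF2α) read 7.26, 7.04 and 6.86 and then 7.41, 7.42 and 8.04, also without overlap (log2 fold change 0.57, SE 0.31, adjusted p = 0.396 by limma). For *Ppp1r15a* too the groups overlapped after centring, with a log2 fold change of 0.15. *Nupr1*, a stress-induced chromatin protein, read 6.74, 6.86 and 7.41 and then 7.63, 7.21 and 9.07, with a log2 fold change of 0.97 (SE 0.50, adjusted p = 0.382 by limma) that was 0.42 without Hsp47-deleted replicate 3.

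**Figure D4:**
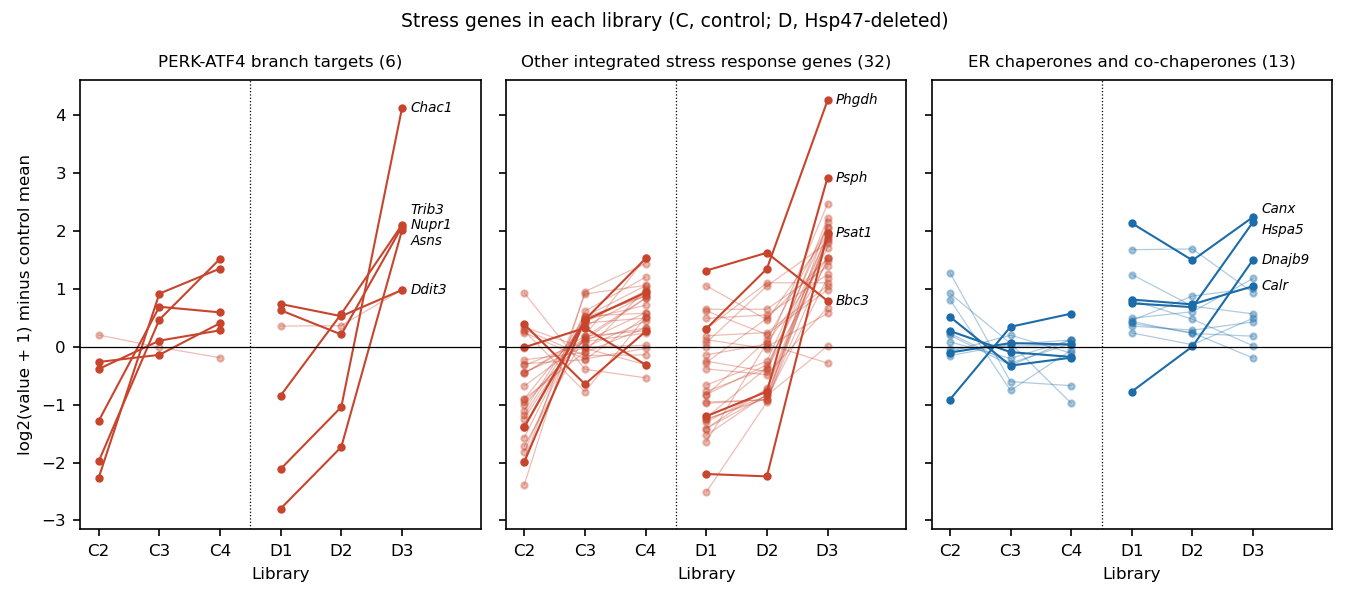
Log2(value + 1) relative to the control mean in each library (C, control; D, Hsp47-deleted; numbers are replicates), for 6 targets of the PERK-ATF4 branch, 32 other genes of the integrated stress response and 13 ER chaperones. Each line joins the points of 1 gene within a group and carries no order; in the left and middle panels most genes are highest in D3, while C2, D1 and D2 are low for genes such as *Asns* and *Psat1*.

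Genes of ER-associated degradation had a median log2 fold change of 0.88 (0.47 after centring, 0.61 without Hsp47-deleted replicate 3 and 0.34 relative to control replicate 2). Of the 11 tested, 4 (36.4%, beside 14.5% of all tested genes) were higher at an unadjusted p under 0.05, and 1 with sequencing run as a covariate (beside 5.46%). The groups did not overlap for 4 (36.4%, beside 18.3%). After centring, 2 (*Syvn1* and *Herpud1*) had no overlap with every control the lower, beside 6.54%, whereas *Os9* and *Vimp* overlapped. After centring, 1 was higher at an unadjusted p under 0.05, beside 4.73%. *Syvn1* encodes HRD1, the ubiquitin ligase at the center of the retrotranslocation complex. It read 3.85, 2.93 and 3.65 in the controls and 4.91, 5.30 and 5.77 in the libraries labelled Hsp47-deleted, so the lowest library of that group lay more than 1 above the highest control. *Syvn1* (chr19:6046576-6053712, its exons overlapped by *Mrpl49* on the other strand) had a log2 fold change of 1.85 (SE 0.37, 95% interval 0.98 to 2.71, unadjusted p = 0.00119, adjusted p = 0.142 by limma), which was 1.48 relative to control replicate 2 and 1.63 without Hsp47-deleted replicate 3.

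*Herpud1*, a membrane component of the HRD1 complex, read 5.66, 5.29 and 5.88 and then 6.31, 6.39 and 8.06. The groups did not overlap, and Hsp47-deleted replicate 3 was 1.71 above the mean of the other two. Its log2 fold change was 1.31 (SE 0.50, adjusted p = 0.306 by limma), and 0.74 without that library. *Vimp* (selenoprotein S) also separated the groups, with 6.11, 5.42 and 5.19 and then 6.18, 6.19 and 6.99, although control replicate 2 came within 0.1 of the lowest library labelled Hsp47-deleted.

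For several partners of HRD1, control replicate 2, the only control of the second run, lay nearer the other group than the first-run controls did. *Sel1l*, the adaptor of HRD1, read 5.14, 3.48 and 3.10 in the controls and 5.14, 5.22 and 4.73 in the libraries labelled Hsp47-deleted, and *Derl2*, a channel component, read 4.42, 2.31 and 2.91 and then 4.73, 4.88 and 3.85. In both genes control replicate 2 lay within the range of the libraries labelled Hsp47-deleted and at least 1.8 above the mean of the other controls. *Os9*, the lectin that delivers glycoproteins to HRD1, read 4.22, 3.02 and 2.80 and then 4.72, 4.65 and 4.31, with a log2 fold change of 1.21 (SE 0.42, adjusted p = 0.291 by limma) that was 0.34 relative to control replicate 2. The mannosidase-like *Edem1* (3.66, 3.91 and 3.79, then 3.50, 3.76 and 3.66), *Edem2* (3.22, 2.39 and 1.55, then 2.97, 2.91 and 1.92) and *Edem3* (4.26, 4.55 and 4.60, then 4.56, 4.65 and 5.05) overlapped between the groups, as did *Derl1* (4.38 to 4.77 and 4.63 to 5.71) and *Selk* (5.17 to 6.17 and 5.84 to 6.48). After centring, every library labelled Hsp47-deleted lay below every control for *Edem1*, with a log2 fold change of -0.56. *Derl3* was not tested, since its mean linear value was under 1; it read 0.35, 0.00 and 0.40 and then 0.31, 0.45 and 0.65.

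Differences within the groups involved 2 sets of genes. Control replicate 2 lay at least 1 above the mean of the first-run controls for 9 of the 43 genes (20.9%), beside 21.7% of all tested genes: *Sil1*, *Sel1l*, *Derl2*, *Pdia5*, *Creld2*, *Os9*, *Edem2*, *Sdf2l1* and *Pdia4*. It lay at least 1 below them for 6 genes (14.0%), beside 13.9%: *Asns*, *Chac1*, *Trib3*, *Ern1*, *Dnajb9* and *Atf6*. Both shares were close to those of all tested genes. Hsp47-deleted replicate 3 lay at least 1 above the mean of the other two libraries of its group for 11 genes (25.6%), beside 8.75% of all tested genes, and at least 1 below it for 1 gene, *Edem2*, beside 7.86%. The 11 genes included all 6 that were low in control replicate 2, together with *Hspa5*, *Herpud1*, *Atf4*, *Nupr1* and *Ero1l*. The B and plasma cell sums above also set control replicate 2, the only control of the second run, apart from the first-run controls. The part of these cells in the differences was not tested.

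**Figure D5:**
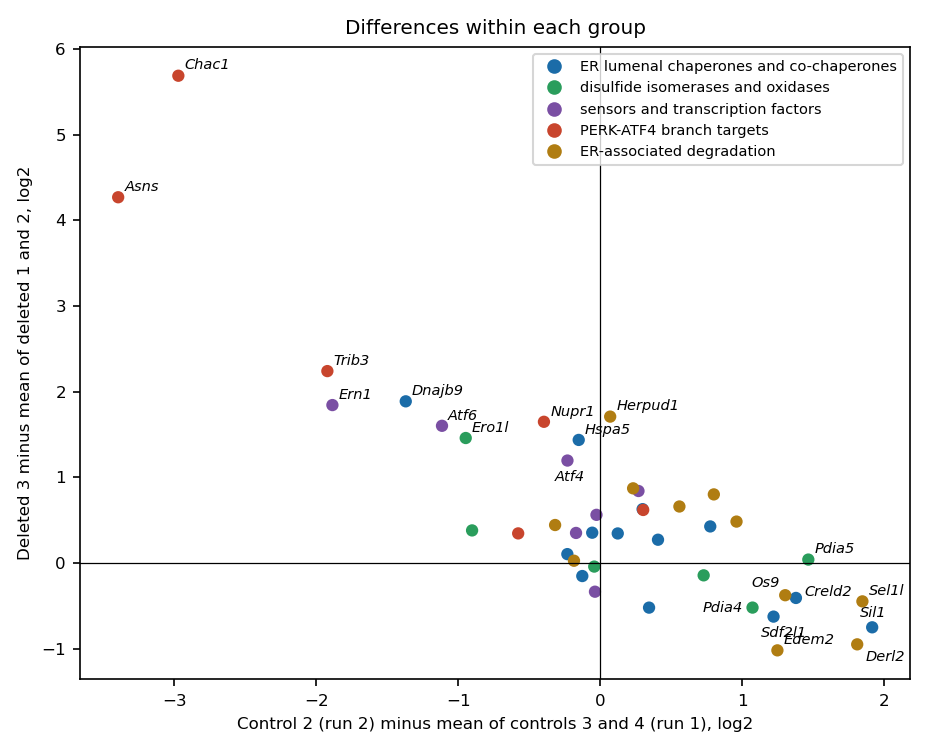
Differences among libraries of the same label for the 43 tested genes, coloured by role: control replicate 2 minus the mean of controls 3 and 4 (horizontal, log2) against Hsp47-deleted replicate 3 minus the mean of replicates 1 and 2 (vertical, log2). *Chac1* and *Asns* lie at the upper left, *Sil1*, *Sel1l* and *Derl2* at the lower right, and *Hspa5* and *Herpud1* above the center.

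Genes with and without the promoter elements shown above were set side by side. Of the 9 tested genes with ERSE, all 9 had a positive log2 fold change with a median of 0.84, 4 were higher at an unadjusted p under 0.05, 6 had no overlap between the groups, and 1 (*Hspa5*) lay at least 1 higher in Hsp47-deleted replicate 3. Among the 28 tested genes with a window and no ERSE, 24 were positive with a median of 0.55, 5 were higher at an unadjusted p under 0.05, 9 had no overlap, and 9 lay at least 1 higher in that library. Of the 7 other tested genes of the table with ERSE, 5 were positive with a median of 0.44, and 0 were higher at an unadjusted p under 0.05. Of all tested genes, 74.5% were positive, 14.5% were higher at that threshold and 18.3% had no overlap with every control the lower. For 8.75% of them, Hsp47-deleted replicate 3 lay at least 1 above the mean of the other two libraries of its group. All 5 genes with CARE lay at least 1 higher in Hsp47-deleted replicate 3, with a median difference of 2.24, beside 5 of the 32 tested genes with a window and no CARE (median 0.31) and 33 of the 293 other tested genes with CARE (median -0.05). These counts are descriptions, since the genes were chosen by pathway and ATF4 targets were among them.

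Genes of neighboring pathways gave the wider setting. None of them passed the adjusted threshold in limma. Outside the 44, 32 genes of the integrated stress response were tested. Of these, 24 (75.0%, beside 8.75% of all tested genes) lay at least 1 higher in Hsp47-deleted replicate 3. In control replicate 2, 18 (56.2%, beside 13.9%) lay at least 1 lower. At an unadjusted p under 0.05, 3 (9.4%, beside 14.5%) were higher. The median log2 fold change of the 32 genes was 0.19 (-0.23 after centring). *Psat1*, an enzyme of serine synthesis chosen after its values were seen, read 4.20, 6.66 and 7.71 in the controls and 3.99, 3.95 and 8.14 in the libraries labelled Hsp47-deleted; as for *Asns*, the first-run controls and Hsp47-deleted replicate 3 were the higher libraries. *Bbc3* (PUMA; 1.46, 0.42 and 1.33, then 2.38, 2.69 and 1.86) and *Cebpb* (3.43, 3.06 and 2.78, then 3.39, 4.19 and 4.19) had the smallest p of this list, with log2 fold changes of 1.24 and 0.84 (adjusted p = 0.283 and 0.324 by limma) that were 0.86 and 0.50 relative to control replicate 2.

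Of 38 further genes of ER folding, 11 (28.9%, beside 14.5% of all tested genes) were higher at an unadjusted p under 0.05. With sequencing run as a covariate 3 were (beside 5.46%), and after centring 1 was (beside 4.73%). None lay at least 1 higher in Hsp47-deleted replicate 3, beside 8.75%, and the median log2 fold change was 0.58 (0.16 after centring). *Erp29*, a relative of the disulfide isomerases, read 5.83, 4.32 and 4.44 and then 6.52, 6.11 and 6.04, and *Mogs*, the glucosidase that starts glycan trimming, read 2.05, 1.03 and 0.83 and then 2.29, 2.46 and 2.83. Both had no overlap (log2 fold changes 1.36 and 1.22, adjusted p = 0.283 and 0.286 by limma), and relative to control replicate 2, the highest control for both, the differences were 0.40 and 0.48. For 22 other genes of ER-associated degradation the median was 0.14 (-0.27 after centring), and 2 (9.1%, beside 14.5% of all tested genes) were higher at an unadjusted p under 0.05. These were *Dnajb12* (3.35, 3.23 and 2.98, then 4.02, 4.13 and 4.72; log2 fold change 1.10, adjusted p = 0.275 by limma) and *Aup1* (4.47, 2.88 and 2.97, then 4.66, 4.92 and 4.52; log2 fold change 1.26, adjusted p = 0.301 by limma), whose differences relative to control replicate 2 were 0.94 and 0.23.

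Of 14 other tested genes of ER stress sensing, 4 (28.6%, beside 14.5% of all tested genes) were higher at an unadjusted p under 0.05, with a median of 0.55 (0.13 after centring). *Mbtps1*, the site-1 protease that cleaves ATF6 and the CREB3L factors, read 4.53, 3.67 and 3.63 and then 4.89, 5.00 and 4.87 (log2 fold change 0.98, adjusted p = 0.290 by limma), and *Bak1* read 4.75, 2.74 and 2.42 and then 5.26, 4.91 and 4.51, with overlap (log2 fold change 1.59, adjusted p = 0.306 by limma). Relative to control replicate 2 these differences were 0.39 and 0.15. Outside the ER, 11 of 30 tested cytosolic heat shock proteins and 11 of 41 genes of procollagen export and the early secretory pathway were higher at an unadjusted p under 0.05 (36.7% and 26.8%, beside 14.5% of all tested genes), with medians of 0.55 and 0.50 (0.13 and 0.08 after centring). These counts were 5 and 1 with sequencing run as a covariate (beside 5.46% of all tested genes), and likewise 5 and 1 after centring (beside 4.73%). No gene of these lists was lower at that threshold.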

How the data were processed

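Total RNA from sorted EGFP+ cells was amplified and sequenced by the authors. Per the labels, the submitters' processing notes name kallisto and mm10, and the study's methods name AltAnalyze; versions are not given in the sources used here. The authors deposited log2(value + 1) for each gene and library, used here as deposited, along with group means and columns of their own comparison (fold changes and p-values), which were not used. The values are not counts, so the depth is unknown.

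Genes with a mean linear value of at least 1 over the 6 libraries passed the filter, which left 15109 genes and dropped 13878. The 2 groups were fitted in limma 3.58.1 under R 4.3.3 (lmFit, eBayes with a mean-variance trend, two-sided, no covariate), with BH adjustment over all tested genes. The code was tested on simulated data. An exact permutation test of 3 against 3 cannot give a two-sided p below 0.1. Positions are from GENCODE M21 (GRCm38). For the 44 genes and *Serpinh1*, minimap2 2.31-r1302 found no near-identical copy (95% identity over 80% of a transcript). Besides those of *Ddit3* and *Syvn1*, exons of *Hsp90b1*, *Manf* and *Pdia4* are overlapped by exons of other annotated genes on the same strand. Exons of *Derl2*, *Dnajb9*, *Eif2ak3*, *Pdia3*, *Pdia6*, *Ppp1r15a* and *Sil1* are overlapped on the other strand only.

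The genes, lists and tests were chosen with earlier results of these data known. Named with tests were *Serpinh1*, 8 index genes (*Hspa5*, *Hsp90b1*, *Ern1*, *Eif2ak3*, *Atf6*, *Xbp1*, *Atf4*, *Ddit3*), the 3 genes of smallest p in each of the 5 groups by role and the 2 of smallest p in each further ER or stress list; other genes are given as values. Alternatives were other filters, pseudocounts, scalings and variance models, sequencing run as a covariate, the replicate number as a block, the second run alone and each library left out; rescaling without mitochondrial genes was added after seeing the data.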

Additional observations from a re-analysis of the deposited data

How the results depend on the processing

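No gene of the 43 passed the adjusted threshold in limma except without control replicate 2; leaving out each library in turn gave 0 to 8 such genes, 2 to 19 genes at an unadjusted p under 0.05 (2 without control replicate 3, 6 without control replicate 4 or Hsp47-deleted replicate 2, and 19 without control replicate 2, of which 18 were higher), a median log2 fold change of 0.47 to 0.79, and 8 to 2768 called genes of all tested. Of all tested genes, 37 were called in the fit as reported, 50 with sequencing run as a covariate, and 28 to 35 with a mean of at least 5, a pseudocount of 5 or no mean-variance trend. The remaining settings called 13 genes of all tested with no filter on low values, 16 with a pseudocount of 0.1, 18 after centring on the median, 17 after quantile normalization and 17 after rescaling without mitochondrial genes. Genes of the 43 at an unadjusted p under 0.05 numbered 2 after centring and 4 with sequencing run as a covariate, all higher in the Hsp47-deleted group. After quantile normalization and after rescaling they numbered 3 each, of which 2 were higher and 1 was lower. The median was 0.15 after centring, 0.16 after quantile normalization and 0.082 after rescaling. Only 2 replicate numbers are shared between the groups; libraries sharing a number had correlations of their deviations of 0.16 and 0.23, which with 2 pairs does not establish a pairing, and with the replicate number as a block 0 genes of all tested were called, the median was 0.80 and *Serpinh1* was at -0.28.

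Of 28 genes named with a test, 22 kept the direction of their log2 fold change in every setting run. The 28 do not include *Chac1*, *Asns* and *Trib3*, which were singled out after their values were seen. Without Hsp47-deleted replicate 3, *Chac1* was at -1.58 and *Trib3* at -0.14, and with run as a covariate *Asns* was at 1.42. Each of these has the opposite sign to the fit as reported. Centring, quantile normalization and rescaling gave *Atf6* -0.39, -0.34 and -0.45, *Hsp90b1* -0.16, -0.31 and -0.23, *Ern1* -0.14, -0.065 and -0.19, and *Serpinh1* -0.34, -0.27 and -0.41. With run as a covariate, or in the second run alone, *Pdia5* was at -0.067, *Pdia3* at 0.11 and *Serpinh1* at -0.87. With each library left out in turn, *Atf6* ranged from -0.51 (without Hsp47-deleted replicate 3) to 0.42, *Ern1* was at -0.35 without control replicate 2 and at -0.34 without Hsp47-deleted replicate 3, and *Serpinh1* ranged from -0.21 (without control replicate 4) to 0.54 (without control replicate 2). *Atf6* was also at -0.35 without control replicate 2, and *Serpinh1* at -0.12 without control replicate 3. The causes were not tested. The unknown depth limits what can be said of genes with low values, such as *Derl3* and *Trib3*.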
